A study of Mus musculus with 2 samples.

Results

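The loci of 7 mouse genes that write, copy or remove DNA methylation were examined in RRBS data from sorted *Rex1*-high and *Rex1*-low embryonic stem cells (ESCs). The genes were *Dnmt1*, *Uhrf1*, *Dnmt3a*, *Dnmt3b*, *Dnmt3l*, *Tet1* and *Tet2*, each taken as the gene with about 5 kb on either side in mm9 coordinates. A CpG was used when a line of at least 5 calls covered it in both libraries, a call being 1 read of the cytosine as methylated or unmethylated. The 7 windows held 1077 such CpGs of 1707425 in the whole series, or 0.0631%. The cells were E14 ESCs of strain 129/Ola with a GFP reporter knocked in at *Rex1* (the Rex1-dGFP knockin line), grown on gelatin with LIF and 10% serum. Both populations came from this line and these conditions and differed in the reporter level at which they were sorted. Each state had 1 library, so that the tests compare these libraries and carry no replicate check. The *Rex1*-high library held 60718476 calls and the *Rex1*-low library 61024229. Methylation was read from the DNA, and no expression was measured here.

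DNMT1 copies CpG methylation onto the new strand after replication, and UHRF1 brings it to hemimethylated sites. DNMT3A and DNMT3B methylate unmethylated CpGs, and DNMT3L, which has no catalytic activity of its own, stimulates them. TET1 and TET2 oxidize 5-methylcytosine to 5-hydroxymethylcytosine and beyond, a first step in removing it. Bisulfite sequencing reads 5-methylcytosine and 5-hydroxymethylcytosine alike, so a level here is the sum of both forms. CpG-rich promoters are usually unmethylated in ESCs, whereas gene bodies and other CpG-poor sequence are usually methylated.

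The gene bodies of all 7 loci had higher methylation in *Rex1*-low cells, while the CpG-rich starts placed for 6 of them, all but *Dnmt3l*, differed by 5.01 points at most. Over the bodies, mean methylation was 49.4% in *Rex1*-high and 73.0% in *Rex1*-low cells (453 CpGs), a difference of 23.6 points. The 5′ ends, the first 10 kb of each window, went from 15.1% to 18.6% (534 CpGs), a difference of 3.44 points. By locus this difference ran from 0.89 points in *Tet2* to 32.1 points in *Dnmt1*, whose CpG-rich start lies outside its 5′ end. The mean over all CpGs of the series went from 39.2% to 54.2%. The 95% interval of the difference, which covers counting error only, was 22.4 to 24.8 points for the bodies and 2.62 to 4.26 points for the 5′ ends. With calls pooled over all CpGs in place of the mean over CpGs, the bodies held 49.3% and 70.5%. The 5′ ends then held 16.6% and 17.7%.

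Promoter sequences are shown for 4 of the 7 starts that could be placed, to let the CpGs behind the promoter levels be seen. They are RefSeq sequences of GRCm38.p6, the 250 bases before the start in the direction of transcription, and their mm9 positions were found by matching the spacing of their CpGs to the positions in the data. Capitals mark CpGs used in both libraries.
*Tet2* (chr3:133207355-133207604, minus strand): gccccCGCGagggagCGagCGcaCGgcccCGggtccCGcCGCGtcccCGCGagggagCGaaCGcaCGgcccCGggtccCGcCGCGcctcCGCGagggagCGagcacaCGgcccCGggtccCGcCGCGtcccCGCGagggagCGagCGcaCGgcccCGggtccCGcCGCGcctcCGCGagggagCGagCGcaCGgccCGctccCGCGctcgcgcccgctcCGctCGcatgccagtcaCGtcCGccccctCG
*Tet1* (chr10:62350073-62350322, minus strand): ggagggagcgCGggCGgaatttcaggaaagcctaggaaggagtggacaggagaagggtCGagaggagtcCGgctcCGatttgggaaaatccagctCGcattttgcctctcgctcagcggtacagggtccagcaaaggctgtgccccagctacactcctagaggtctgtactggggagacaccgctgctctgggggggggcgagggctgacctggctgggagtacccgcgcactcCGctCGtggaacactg
*Dnmt3b* (chr2:153474935-153475184, plus strand): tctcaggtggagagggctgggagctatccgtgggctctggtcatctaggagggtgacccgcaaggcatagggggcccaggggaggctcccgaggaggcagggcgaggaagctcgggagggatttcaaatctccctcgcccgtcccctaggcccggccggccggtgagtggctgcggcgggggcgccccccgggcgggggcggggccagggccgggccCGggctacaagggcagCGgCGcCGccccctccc
*Dnmt3a*, internal start (chr12:3891494-3891743, plus strand): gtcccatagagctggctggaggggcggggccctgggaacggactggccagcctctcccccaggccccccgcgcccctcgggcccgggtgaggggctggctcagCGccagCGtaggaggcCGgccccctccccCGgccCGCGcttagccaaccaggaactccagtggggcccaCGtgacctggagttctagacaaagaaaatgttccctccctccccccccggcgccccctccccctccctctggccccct

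The *Tet2* sequence carried 51 CpGs, of which 48 were used, and the 22-base unit cacggccccgggtcccgccgcg occurs 4 times in it. Its mean methylation was 4.27% in *Rex1*-high and 6.05% in *Rex1*-low cells, and 44 of the 48 CpGs were at or below 20% in either library. In the *Tet1* sequence 8 of 15 CpGs were used, and 7 of the 8 were at or below 20% in either library. These 8 CpGs had few calls, 5 to 29 each in *Rex1*-high and 5 to 11 in *Rex1*-low cells, so their levels are imprecise. For *Dnmt3b* 4 of 21 CpGs were used, and 3 of the 4 were at or below 20%. The internal start of *Dnmt3a*, from which the shorter isoform of the enzyme is made, had 7 of 15 CpGs used and 5 at or below 20%. The mean went from 6.25% in *Rex1*-high to 11.25% in *Rex1*-low cells in the *Tet1* sequence. It went from 26.5% to 15.3% in that of *Dnmt3b* and from 22.4% to 18.7% in that of *Dnmt3a*. Each of these 2 falls came mainly from 1 CpG with few calls. At position 153475152 of *Dnmt3b*, 16 of 16 calls were methylated in *Rex1*-high cells, against a level of 58.3% in *Rex1*-low cells (30 calls). At position 3891613 of *Dnmt3a*, 6 of 6 calls were methylated in *Rex1*-high cells, against a level of 54.5% in *Rex1*-low cells (39 calls). The CpGs above 20% numbered 4 in the *Tet2* sequence, 2 in that of *Dnmt3a* and 1 each in those of *Tet1* and *Dnmt3b*.

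All of these CpGs lay in CCGG or TCGA, the sites of MspI and TaqI, the enzymes that cut the DNA for RRBS. Both sites read the same on either strand and do not overlap each other. Over the 300 bases around each of the 7 starts placed for the 6 genes other than *Dnmt3l* (250 before and 50 after the start), 25 CpGs within these sites had a mean of 49.2% in *Rex1*-high and 55.4% in *Rex1*-low cells. Within the sites the mean fell at the internal start of *Dnmt3a* (78.6% to 55.9%) and at *Dnmt3b* (71.0% to 54.7%), over 2 CpGs each. The methylated share of their pooled calls did not fall. It was 15 of 21 in *Rex1*-high and 47 of 62 in *Rex1*-low cells at *Dnmt3a*, and 43 of 71 and 75 of 106 at *Dnmt3b*. The mean within the sites rose at each of the other starts. The 132 CpGs outside the sites had a mean of 0.40% and 0.96%. Their calls were 18 methylated of 3697 in *Rex1*-high cells, with a 95% Wilson interval of 0.31% to 0.77%, and 39 of 5165 in *Rex1*-low cells, with an interval of 0.55% to 1.03%. The same split held over all promoter sequences that could be placed, with means of 53.4% and 56.9% at 27058 CpGs within the sites and of 1.23% and 1.85% at 113706 others. CCGG occurs in 52.8% and TCGA in 22.0% of all 32851 promoter sequences of the RefSeq table. At 39.6% (*Rex1*-high) and 34.5% (*Rex1*-low) of the CpGs within sites, 1 line of the CpG was at or above 80% methylated and the other at or below 20%, whereas 0.025% and 0.028% of the other CpGs showed this. Whether calls at the cut sites reflect methylation of the genome was not tested. All means given here for promoters, 5′ ends, tiles and bodies include such CpGs. In the 7 windows the lines disagreed at 49 (*Rex1*-high) and 42 (*Rex1*-low) of the 534 CpGs of the 5′ ends and at 38 and 15 of the 453 CpGs of the bodies, whose sequence was not read. Away from the cut sites, the promoter sequences of these genes held almost no methylation in either state.

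**Figure D1:**
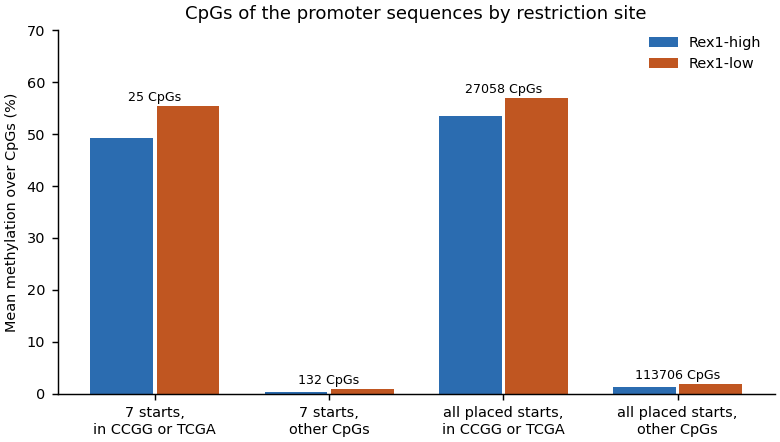
Mean methylation in percent of CpGs in the 300 bases around gene starts, split by whether the CpG lies in a site of MspI or TaqI, in the *Rex1*-high and *Rex1*-low libraries; the left pairs are the 7 starts of 6 member genes and the right pairs all placed starts. At the 7 starts the CpGs outside the sites are at 0.40% and 0.96%, against 49.2% and 55.4% within them.

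Among the maintenance genes, *Dnmt1* (chr9:20706000-20770000, minus strand) rose in its body from 43.6% to 61.3% over 133 CpGs, by 17.7 points (95% counting interval 15.6 to 19.8). This body includes the CpG-rich start, which lies 12.93 kb from the 5′ edge of the window. The promoter, defined as 2 kb before to 500 bp after the start, held 12.6% in *Rex1*-high and 15.8% in *Rex1*-low cells over 39 CpGs. Its calls, summed per library, differed by Fisher's exact test (p = 0.0239 after Benjamini-Hochberg adjustment over 9166 promoters), but its difference of 3.20 points is under the 10 points required for a call. Without the 15 kb next to the 5′ edge, the body difference of *Dnmt1* was 23.7 points.

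Another *Dnmt1* region changed more than its promoter. RefSeq lists a further start 7265 bp upstream of the placed one (a distance in GRCm38), with 2 CpGs in its 300 bases. Between the 2 starts, 9 CpGs were measured at -6.33 to -6.16 kb from the placed one, negative distances being upstream. In this region, chr9:20762501-20765000, methylation was 35.7% in *Rex1*-high and 67.8% in *Rex1*-low cells. All 9 CpGs were higher in *Rex1*-low cells, and 6 of them passed the test per CpG, which was Fisher's exact test adjusted over all 1707425 CpGs. Over the whole series 12.6% of CpGs were called higher and 0.162% lower. At position 20763351 the calls went from 10 methylated of 48 to 55 of 90 (exact test, adjusted p = 5.31e-04). The 5′ end of the *Dnmt1* window consists of these 9 CpGs alone, and it stood higher in both libraries than the 5′ end of any other locus.

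Toward its 3′ end *Dnmt1* also held a CpG-rich tile that was methylated, chr9:20712501-20715000, 42.8 to 44.3 kb downstream of the placed start. A tile is a 2500-bp stretch of the genome with at least 3 used CpGs, called when its adjusted p is under 0.05 and its mean changes by at least 10 points. This tile held 24 CpGs and went from 51.7% (517 calls) to 81.0% (568 calls) (exact test, p = 6.96e-31 after adjustment over 162613 tiles). Of its 24 CpGs, 9 passed the test per CpG. Of all tiles in the series with 20 or more CpGs, 13.4% were called higher, and of those with 3 to 19 CpGs 81.7%. Among tiles of 20 to 39 CpGs that started at 40% to 60%, as this one did, 98.7% were called higher and the median change was 28.4 points, against its 29.3 points. The largest rise in the *Dnmt1* window among the called CpGs with at least 10 calls in each library was here as well, from 2 of 14 to 11 of 12 methylated calls at position 20712735. With a minimum of 10 calls, with 1000-bp tiles or with a shifted grid, no tile of 20 or more CpGs in the 7 windows was called.

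*Uhrf1* (chr17:56438000-56468000, plus strand) had the highest body level in *Rex1*-low cells, 87.6% against 53.0% in *Rex1*-high cells (35 CpGs). The difference was 34.6 points (30.0 to 39.3), second to that of *Dnmt3l*. Its promoter held 13.1% and 14.0% over 53 CpGs, and its pooled calls went from 214 of 1484 to 372 of 1954 (exact test, adjusted p = 3.62e-03), with a change in the mean of 0.88 points, under the 10 points of a call. Before the start, 2 CpG-poor tiles, of which the nearer one shares 3 of its 5 CpGs with the promoter, went from 58.2% to 84.7% and from 55.7% to 77.1%, and both were called. The 5′ end as a whole went from 22.2% to 29.5%, with low values around the start and high values before it. Its difference of 7.28 points became 3.84 points with a minimum of 10 calls and 2.12 points (-0.27 to 4.51) from 2 to 7 kb of the 5′ edge. Within the 5′ part of the body, position 56448735 had 0 of 15 methylated calls in *Rex1*-high cells, which allows a level of up to 20.4% by the Wilson interval, and 17 of 21 in *Rex1*-low cells (exact test, adjusted p = 1.27e-04). Another CpG-rich tile, in the 3′ flank of *Uhrf1*, with 62 CpGs, held 14.9% and 16.8% and was not called.

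Among the de novo enzymes, *Dnmt3a* (chr12:3801000-3920000, plus strand) rose in its body from 58.4% to 76.0% over 108 CpGs, by 17.6 points (15.1 to 20.2). Its main start, which had the most CpGs and the most calls in total of the 7 placed starts, held 10.2% in *Rex1*-high cells (109 CpGs, 3342 calls) and 10.5% in *Rex1*-low cells (7226 calls). The internal start held 23.8% and 28.9% over 13 CpGs, and its adjusted p was 0.719. It lies 90.74 kb from the 5′ edge of the window, so these CpGs are counted in the body. CpG-poor tiles directly downstream of the internal start rose, from 72.6% to 91.4% at 3.26 to 4.34 kb and from 54.6% to 94.3% at 5.78 to 8.24 kb. Upstream of this start, a tile of 3 CpGs at -2.27 to -2.15 kb held 54.2% and 53.2%, the only tile of the 71 with 3 to 19 CpGs whose mean was not higher in *Rex1*-low cells. The largest rise at 1 CpG was in the tile from 5.78 to 8.24 kb, at position 3897585, from 5 of 32 to 19 of 21 methylated calls (exact test, adjusted p = 2.57e-05).

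The body of *Dnmt3a* also held a stretch that stayed partly methylated in both libraries. The tile chr12:3870001-3872500, 64.8 to 64.9 kb downstream of the main start, had 7 CpGs at a mean of 27.4% (386 calls) and 28.6% (376 calls). Tiles of 5 to 9 CpGs that started at 20% to 40% rose by a median of 22.3 points over the series, with quartiles of 10.5 and 34.4. Of its 7 CpGs, 4 were below 10% in both libraries, at positions 3871776, 3871809, 3871824 and 3871853, and 3 ranged from 53.1% to 75.6% over both. In 2 of those 3, the lines of the CpG disagreed in both libraries in the way described for the cut sites. No sequence was read for this stretch, so whether its CpGs lie in cut sites was not tested.

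*Dnmt3b* (chr2:153470000-153519000, plus strand), whose product is a de novo enzyme of the early embryo, rose in its body from 62.1% to 85.1% over 36 CpGs, by 23.0 points (18.6 to 27.4). Its promoter held 8.40% and 9.68% over 75 CpGs, from 1994 and 3595 calls. The tile over the start, with 91 CpGs, went from 10.5% to 10.8%. A tile of 3 CpGs at -1.48 to -1.40 kb from the start went from 43.3% to 68.2%, so that methylation gave way to the low level of the start within this distance in both states. In the body, an 18-CpG tile 27.4 to 28.8 kb downstream went from 62.6% to 84.0% and was called, with 7 of its CpGs passing the test alone. Position 153510277 had the largest rise at 1 CpG, from 13 of 37 to 45 of 51 methylated calls (exact test, adjusted p = 6.20e-05).

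*Dnmt3l* (chr10:77499000-77532000, plus strand) was the least covered locus, with 43 CpGs. Its own starts could not be placed, since RefSeq gives them 6, 4 and 3 CpGs in 300 bases, and only a start of its neighbor *Aire*, on the opposite strand, was placed in the window. The body went from 48.2% to 85.1% over 13 CpGs, by 36.9 points (29.1 to 44.7), the largest difference among the 7 bodies, on the fewest CpGs. The 5′ end went from 28.6% to 45.6% over 18 CpGs. The difference became 25.5 points with a minimum of 10 calls, and 9.59 points with no minimum, where its interval of -2.79 to 22.0 points includes 0. Its tile around the *Aire* start, with 14 CpGs, went from 21.8% to 35.2% and was called.

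The 3′ flank of *Dnmt3l* held the only 2 CpGs of the 1077 that were called lower in *Rex1*-low cells, against 0.162% over the series. At position 77531679 the calls went from 34 methylated of 66 to 0 of 14 (exact test, adjusted p = 5.08e-03), and at position 77531895 from 25 of 25 to 16 of 24 (exact test, adjusted p = 0.0207). In the first, 2 lines were kept in *Rex1*-high cells and 1 in *Rex1*-low cells, and in the second 1 and 2, with the 2 lines disagreeing. A CpG in the same flank, position 77531556, went from 5 of 40 to 14 of 23 methylated calls and was called higher. The flank as a whole, 12 CpGs, held 25.1% and 23.4%, and the interval of the difference ran from -8.29 to 4.93 points. The 52-CpG tile that starts there and runs past the end of the window held 13.9% and 16.1% and was not called.

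Of the genes for erasers, *Tet1* (chr10:62262000-62356000, minus strand) had 41 of 177 CpGs called higher, against 12.6% over the series. Its body went from 43.7% to 74.8% over 90 CpGs, by 31.1 points (28.4 to 33.7), and 35 of these CpGs were called higher. The promoter held 13.6% in *Rex1*-high cells (41 CpGs, 1592 calls) and 15.2% in *Rex1*-low cells (2022 calls), and its adjusted p was 0.993. The 61 CpGs from 0.09 to 2.35 kb downstream of the start held 16.8% and 18.2%. From 6.23 kb downstream the levels separated, with 39.9% and 81.4% in a tile of 7 CpGs and 31.8% and 60.3% in the next one of 10 CpGs. In the first 10 kb of the window 3 CpGs were called higher, the one farthest from the start 3.43 kb downstream of it, where the calls went from 13 of 23 to 17 of 17. The lines of this CpG disagreed in *Rex1*-high cells, and its tile of 3 CpGs held 32.1% and 33.3% and was not called. Upstream of the start, a tile of 5 CpGs at -3.81 to -2.96 kb went from 43.1% to 55.3% and was called (exact test, adjusted p = 0.0265). At 4 of its CpGs the lines disagreed. A 16-CpG tile near the 3′ end of *Tet1*, 72.6 to 74.9 kb downstream, went from 54.2% to 89.7%, and 8 of its CpGs were called. It contains the largest rise at 1 CpG, from 7 of 32 to 16 of 18 methylated calls at position 62276397 (exact test, adjusted p = 4.76e-04).

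*Tet2* (chr3:133121000-133214000, minus strand) had the lowest 5′ end, 8.77% and 9.67% over 75 CpGs. All 75 lie in its promoter as defined here. The pooled calls of the promoter went from 246 of 2296 to 386 of 2530 (exact test, adjusted p = 7.18e-05), but the mean over CpGs moved by 0.89 points. Its body went from 42.9% to 72.6% over 38 CpGs, by 29.7 points (25.9 to 33.5). The largest tile change was 21.8 to 21.9 kb downstream of the start, where 6 CpGs went from 23.5% to 68.4%, while a tile of 10 CpGs 10.1 to 10.9 kb downstream went from 33.0% to 47.6%. At position 133151242 the calls went from 11 of 29 to 27 of 29 (exact test, adjusted p = 9.98e-04), the largest rise at 1 CpG.

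**Figure D2:**
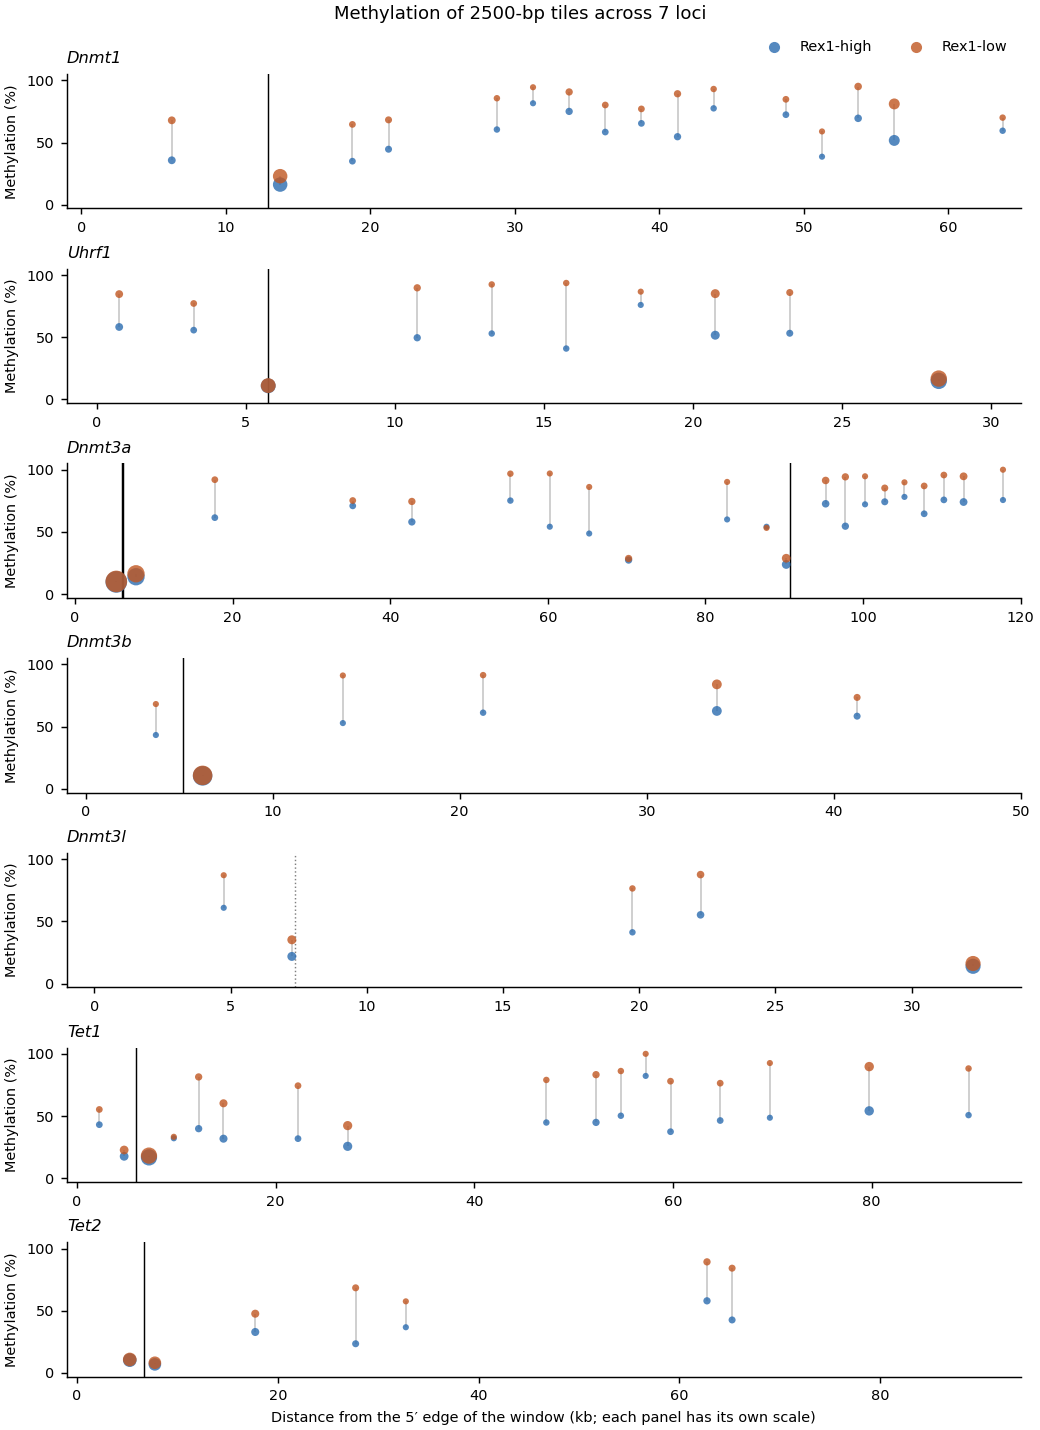
Mean methylation in percent of each 2500-bp tile against its distance in kb from the 5′ edge of the window, in the *Rex1*-high and *Rex1*-low libraries, with point area growing with the number of CpGs, gray lines joining the 2 libraries, solid vertical lines at placed starts of the gene and a dotted line at the start of *Aire* in the *Dnmt3l* window. The large points at or near the solid lines overlap at low levels, while most small points are higher in *Rex1*-low cells.

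In all, 62 of 82 tiles in the 7 windows were called higher and none lower in *Rex1*-low cells. Over the whole series 75.5% of 162613 tiles were called higher and 0.0332% lower. The share in the windows, 62 of 82, is near this background. Tiles of 3 to 19 CpGs were called higher in 61 of 71 cases, against 81.7% in the series, and their median change was 24.9 points, against 24.6 points in the series. Tiles of 20 or more CpGs were called in 1 of 11 cases, the one in *Dnmt1*, against 13.4% in the series. Their median was 13.9% in *Rex1*-high and 16.1% in *Rex1*-low cells, against 14.2% and 16.3% in the series.

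Individual CpGs gave the same picture. Of the 1077 CpGs, 146 were called higher, against 12.6% over the series, and 2 lower, against 0.162%. In the bodies 118 of 453 were called higher, and in the 5′ ends 22 of 534. The share of body CpGs at or above 80% methylation went from 13.0% to 58.3%, while the share of 5′-end CpGs at or below 20% was 74.0% and 73.4%. Over all CpGs of the series, the share at or above 80% went from 11.8% to 41.9%. The share at or below 20% was 38.8% and 34.2%.

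**Figure D3:**
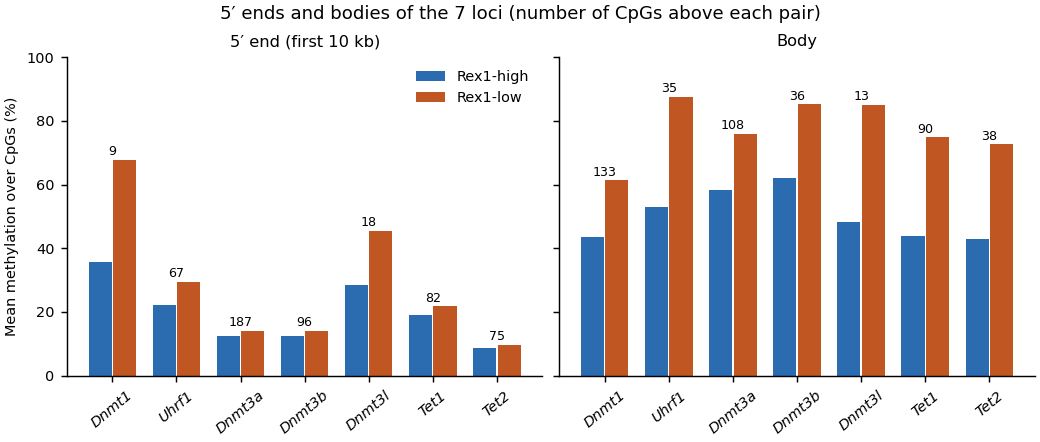
Mean methylation in percent over the CpGs of the 5′ end (left) and the body (right) of each locus in the *Rex1*-high and *Rex1*-low libraries, with the number of CpGs above each pair and no error bars, since each state has 1 library. All 7 bodies are higher in *Rex1*-low cells, by 17.6 to 36.9 points, and the 5′ ends of *Dnmt3a*, *Dnmt3b*, *Tet1* and *Tet2* differ by less than 3 points.

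The loci were set beside tiles of the same kind, since the change over the series depended on the CpG number and the starting level. For each tile of 3 to 19 CpGs, the median change of all tiles in the series with a similar CpG number and a similar *Rex1*-high level was subtracted. The change exceeded this median in 12 of 16 tiles of *Tet1*, in 5 of 8 of *Uhrf1*, in 4 of 5 of *Tet2* and in 3 of 4 of *Dnmt3l*. It did so in 5 of 14 tiles of *Dnmt1*, in 9 of 19 of *Dnmt3a* and in 2 of 5 of *Dnmt3b*. The median excess was 5.15 points for *Tet1* and -6.38 points for *Dnmt1*, and 1.49 points over the 71 tiles. These are descriptions of a few neighboring tiles in each locus, without a test.

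Around the 7 placed starts the low zone had a limited width. From 500 bp before to 500 bp after the start, means lay between 8.83% and 11.4% in both libraries, and the medians over CpGs were 0. Between 2 and 5 kb downstream they were 53.5% in *Rex1*-high and 76.6% in *Rex1*-low cells (28 CpGs), and between 2 and 5 kb upstream 54.3% and 73.6% (19 CpGs from 3 starts). At all placed starts the same distances gave 38.0% and 54.8% downstream, and 34.8% and 48.7% upstream. Between 1 and 2 kb downstream the order was the other way, with 21.3% and 27.6%, against 25.5% and 34.7% at all placed starts. Between 1 and 2 kb upstream it was not, with 44.6% and 59.7% (13 CpGs from 4 starts), against 26.7% and 35.7%. These differences from starts in general were not tested.

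**Figure D4:**
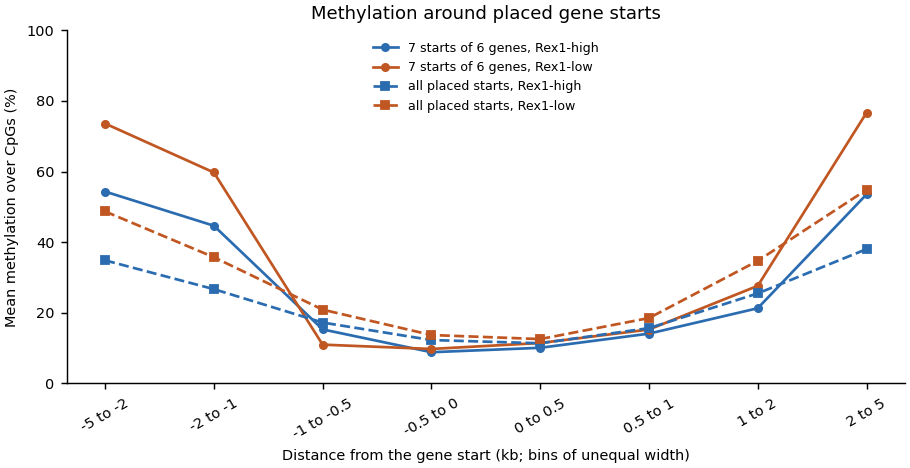
Mean methylation in percent over CpGs by distance in kb from the gene start, in bins of unequal width, for 7 starts of 6 member genes (solid lines) and all placed starts (dashed lines) in each library. Within 500 bp of the start all 4 lines lie between 8.83% and 13.7%, and the solid lines of the 2 libraries are far apart beyond 1 kb upstream and 2 kb downstream.

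None of the 7 member promoters was called by Fisher's exact test, at the 10-point minimum, in either direction, or by a Cochran-Mantel-Haenszel test with CpGs as strata. Over all 9166 promoters tested, 3.73% were called higher and 0.0109% lower. Without the 10-point minimum, those of *Dnmt1*, *Uhrf1* and *Tet2* passed the adjusted p alone. A list of 25 other genes of DNA methylation was treated in the same way, of which 17 had a placed start. Of these 17, 1 was called higher and none lower. This was *Setdb1*, a histone H3 lysine 9 methyltransferase that acts with TRIM28 at repeats, with 36.4% in *Rex1*-high cells (10 CpGs, 278 calls) and 49.2% in *Rex1*-low cells (259 calls) and an adjusted p of 0.0439. The next largest increases were those of *Mbd4*, a glycosylase that removes thymine from G-T mismatches, from 17.1% to 23.2%, and of *Ogt*, an O-GlcNAc transferase that binds TET proteins, from 19.6% to 24.4%. Neither passed the test.

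The 3 lowest differences were negative and not called. *Zbtb33*, which encodes the methyl-CpG binding protein Kaiso, had 9.34% and 6.62%, *Tdg*, the glycosylase that excises oxidized forms of 5-methylcytosine, 8.17% and 7.57%, and *Hells*, a chromatin remodeler needed for normal DNA methylation, 12.6% and 12.3%. The median change was 1.82 points over the 17 other promoters and 1.27 points over the 7 member promoters. *Tet3*, the third TET enzyme, had 15.6% and 18.9%. *Uhrf2*, the paralog of *Uhrf1*, had 12.6% and 16.9% and passed the adjusted p (3.47e-04) without reaching 10 points. Genes of the list whose starts were not placed, among them *Pcna*, *Cxxc5*, *Mbd3*, *Prdm14*, *Zfp57*, *Trim28* and *Dppa3*, are not analysed here.

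**Figure D5:**
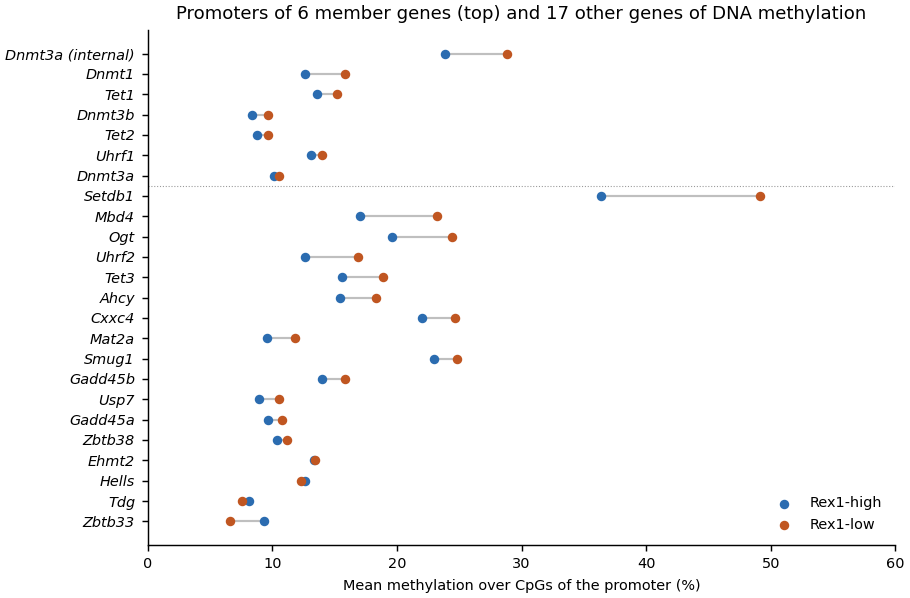
Mean methylation in percent over the CpGs of each promoter, 2 kb before to 500 bp after the start, in the *Rex1*-high and *Rex1*-low libraries, for 7 starts of 6 member genes above the dotted line and for 17 other genes of DNA methylation below it. The widest gap is that of *Setdb1*, from 36.4% to 49.2%, and no member promoter moves by more than 5.01 points.

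Without CpGs whose lines disagreed, the 7 body differences ranged from 17.7 to 37.8 points, and the promoters of the 7 starts gave no call. With calls pooled over all CpGs in place of the mean over CpGs, the small differences at the 5′ ends of *Dnmt3a* and *Tet1* turned to -1.11 and -0.73 points, and the call of *Setdb1* was lost with a minimum of 10 calls or with the lines of a CpG summed first.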

How the data were processed

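RRBS was done on 1 library per state, from sorted *Rex1*-high and *Rex1*-low cells. DNA was cut with MspI and TaqI, and the submitters' processing notes name Bismark 0.7 and mm9. For each line of a position the authors deposited whole-number counts of methylated and of all calls, and a score of 1000 times their ratio, which was not used. A position had 1 or 2 lines with no strand named. Lines of at least 5 calls were kept, the level of a CpG was the mean over its lines, and the level of a region the mean over its CpGs.

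The 5′ end was the first 10 kb of a window, the 3′ flank the last 5 kb and the body the rest. Starts were placed from RefSeq promoter sequences of GRCm38.p6, since no annotation of mm9 was used here: at least 8 positions, all of which had to match CpGs of the sequence, with a lead of 3 over the next offset. Of 15982 sequences with enough CpGs 10190 were placed, and 61 were placed on a wrong chromosome used as a control. Exons and introns were not assigned. Calls summed over CpGs, tiles or promoters were compared by two-sided Fisher's exact tests with Benjamini-Hochberg adjustment, tested on simulated data. Tiles and promoters needed 3 CpGs, an adjusted p under 0.05 and 10 points. Intervals are 95% and cover counting error only. Intervals and tests count each call as independent, although reads are not independent molecules, so both can overstate the precision.

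The text names all 7 genes and the 3 largest changes either way in the list of 25. It also names per window the CpG with the largest rise and fall among called CpGs with 10 calls in each library. Only some of the 62 called tiles are named. The tiles named, and other CpGs and genes, were chosen after their values were seen. The members and lists were chosen with earlier results of these data known. SciPy 1.17.1, NumPy 2.4.6, numba 0.67.0 and pandas 2.3.3 were used under Python 3.11.15, with matplotlib 3.10.9 for plots.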

Additional observations from a re-analysis of the deposited data

How the results depend on the processing

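The 23 values were recomputed under 146 combinations of value and setting, of which 113 stayed within the counting interval of the value or within 1.5 times the count. All 7 body differences stayed positive under each alternative run, from 13.6 to 37.8 points. With calls pooled over CpGs the 5′-end differences of *Dnmt3a* (-1.11 points) and *Tet1* (-0.73 points) changed sign, that of *Tet2* became 4.54 points, and the body differences became 13.6 (*Dnmt1*), 14.9 (*Dnmt3a*) and 24.0 points (*Tet2*). A minimum of 10 calls gave 5′-end differences of 25.5 (*Dnmt3l*), 3.84 (*Uhrf1*) and 5.66 points (*Tet1*), and body differences of 20.9 (*Dnmt3a*), 31.0 (*Dnmt3b*) and 35.3 points (*Tet1*). No minimum gave 9.59 points at the 5′ end of *Dnmt3l*, and 14.7 (*Dnmt3a*) and 23.0 points (*Tet2*) in bodies. From 2 to 7 kb of the 5′ edge the differences were 25.8 (*Dnmt3l*) and 2.12 points (*Uhrf1*), around the placed start 3.20 (*Dnmt1*) and 0.88 points (*Uhrf1*), and without the first 15 kb the body of *Dnmt1* gave 23.7 points.

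A Cochran-Mantel-Haenszel test gave the same number of tile and promoter calls as Fisher's exact test. Tiles called higher numbered 39 of 54 with at least 5 CpGs. The single called tile of 20 or more CpGs became 4 of 14 from 15 CpGs and 0 of 10 from 30 CpGs, both chosen after seeing the data, and 0 with a minimum of 10 calls, with 1000-bp tiles or with a shifted grid. With 1000-bp tiles 1 tile was called lower, in the *Tet2* promoter, where 5 CpGs went from 14 of 111 to 0 of 50 methylated calls. The call of *Setdb1* became 0 calls with a minimum of 10 calls, at 20 points or with lines summed first. CpGs called lower numbered 1 with a minimum of 10 calls, with lines summed first or without CpGs whose lines disagree. Apart from what the settings remove or merge by construction, the causes were not tested. No paired analysis was possible because each state has 1 library, and for the same reason no library could be left out. With a minimum of 10 calls, 832 of the 1077 CpGs remained.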
